A study of Rattus norvegicus with 49 samples.

Results

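The liver transcriptome of untreated male rats was compared with that of untreated female rats. The animals were the vehicle controls of a furan study, F344 rats that were 7 to 8 weeks old at the start and received Mazola corn oil without furan (0 mg/kg) by gavage, 5 days per week for 90 days. They were 10 of the 49 rats with an array, 5 males (animals 2, 3, 4, 5 and 6) and 5 females (animals 2, 4, 7, 9 and 11). The other 39 rats, of the same strain and age, received furan in corn oil (2, 0.5, 0.12 or 0.03 mg/kg) and served here only as a set of independent animals in which to look at the same sex difference again. Each rat had 1 array, on which its liver RNA, labelled with Cy5, was hybridised together with a universal rat reference RNA, labelled with Cy3. All 10 controls were of one inbred strain and received the vehicle alone. A whole piece of liver was used, so that each value is an average over its cell types.

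The rat liver is known for one of the widest sex differences of any tissue outside the gonads. The pituitary of the adult male releases growth hormone in widely spaced pulses, whereas in the female its level in plasma is nearly continuous, and the hepatocyte reads this pattern through the growth hormone receptor, the kinase Jak2 and the transcription factor Stat5b. Androgens and oestrogens act largely by setting the pituitary pattern. The programmes under this control include cytochromes P450 that hydroxylate steroids, conjugating enzymes, carriers, and proteins that the hepatocyte secretes into plasma or urine.

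The values given below are log2 ratios of liver to reference signal for a probe, after loess normalisation of each array, so that a difference of 1 between the sexes is a 2-fold difference. Values of single rats are listed in the order of the animal numbers given above. Differences are male minus female, so that a positive value is a higher level in males, and they carry their standard error (SE) from a limma fit that takes into account that 2 arrays of the same slide resemble each other. Because that fit weighs rats on the same slide more, a fitted difference can depart a little from the difference between the means of the 5 rats of each sex. A probe was called when its Benjamini-Hochberg adjusted p in that fit was 0.05 or less and its difference was at least 1.5-fold. Since a ratio to the reference depends on the probe, levels were not compared between genes.

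Signal was not equal on all arrays. The share of liver spots well above background ran from 45.5% to 69.6% on the male arrays and from 58.0% to 71.1% on the female arrays (exact permutation test of the means, two-sided p = 0.587). The lowest value was that of male control 6, which lies on a slide with no other control and whose values stand below those of the other 4 males for many of the genes named here. Slides 1 to 4 held 1 male and 1 female control each, and differences within these slides are therefore given beside the fitted ones. Without male control 6 the number of probes called was 1242, against 1246 with it, and 4 of the 91 named genes that were called lost the call. The defining markers of hepatocytes, among them albumin, transthyretin and apolipoprotein A1, were all above background, and none of the 10 was called in limma (at an unadjusted p below 0.05, 1 was higher in males and 1 in females).

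Of 17613 probes tested, 1246 (7.07%) were called, 598 higher in males (3.40%) and 648 in females (3.68%). The rest of the account is about probes that match a gene on an autosome. These were 11051 of the probes tested, and 825 of them were called (7.47%), 360 higher in males (3.26%) and 465 higher in females (4.21%). Counted by gene, with the brightest probe of each, 732 of 9571 autosomal genes were called (7.65%), 319 higher in males (3.33%) and 413 higher in females (4.32%). Most of these differences were small, with a median of 0.82 among the genes higher in males and of -0.88 among those higher in females. Differences of more than 4-fold were found for 44 genes in the male and 39 in the female direction, and differences of more than 16-fold for 18 and 9 genes. On the slides that held a control of each sex, 801 of the 825 called autosomal probes had the same sign on all 4 slides and the other 24 on 3 of them. The values of the 5 males and the 5 females did not overlap for 443 of the 825 called probes, against 7.27% of all autosomal probes tested. These probes were called on the same arrays, so neither count is separate support for the calls. When each array was centred on its median in place of loess, the median difference of all probes went from 0.03 to -0.16, and the split of the calls from 598 in the male and 648 in the female direction to 330 and 1329. The balance of small differences between the sexes thus depends on the scaling. The differences of the genes named below are to be read against a median over all autosomal genes of 0.02. List counts below are to be read against the 3.33% of all autosomal genes called higher in males and the 4.32% higher in females.

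**Figure D1:**
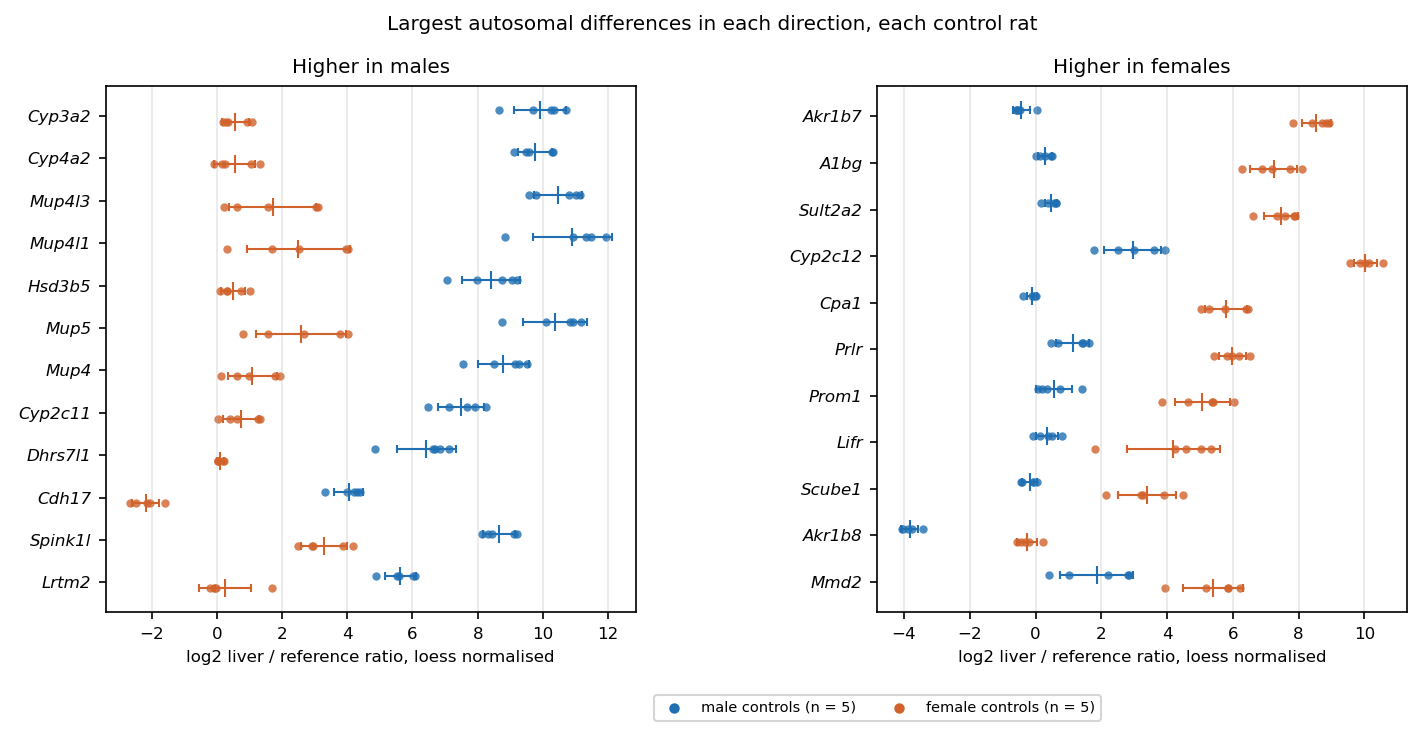
Log2 liver to reference ratio of each control rat for the autosomal genes with the largest called differences, 12 higher in males and 11 higher in females, males in blue and females in orange, with the mean and SD of 5 rats (vertical tick and bar). In none of the 23 genes do the sexes overlap. Levels of different genes are not comparable with each other.

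Cytochromes P450 of families 1 to 4, which oxidise steroids, fatty acids and drugs, were among the genes that differed most. Of 41 tested, 9 were called higher in males and 3 higher in females, beside 3.33% and 4.32% of all autosomal genes. The median difference of the 41 was 0.18. The values of the sexes did not overlap for 9 of the 41, against 7.36% of all autosomal genes tested. Cyp3a2, a steroid 6beta-hydroxylase, measured 10.69, 10.23, 9.69, 10.34 and 8.64 in the 5 males and 1.09, 0.34, 0.92, 0.20 and 0.27 in the 5 females. The lowest male stood far above the highest female, and the fitted difference was 9.53 ± 0.24 (adjusted p = 1.4e-11, limma). Cyp4a2, a fatty acid omega-hydroxylase, measured 10.32, 9.58, 9.49, 10.29 and 9.10 in males and 1.34, 0.15, 1.05, -0.09 and 0.27 in females, a difference of 9.26 ± 0.21. For both probes only 2 of the 5 female arrays were well above background, so the female level was close to the limit of detection. Cyp4a8, the gene next to Cyp4a2 on chromosome 5, differed by 0.87 and was called. Cyp3a18 and Cyp3a62 were also higher in males, by 2.31 ± 0.16 and 1.65. Cyp3a9, another member of the same subfamily on chromosome 12, had the opposite direction, with 1.41, 1.07, 1.65, 1.49 and 1.42 in males and 4.37, 4.42, 4.63, 5.22 and 4.70 in females, and was 9.86-fold higher in females. Cyp2r1, a 25-hydroxylase of vitamin D, was the remaining member called higher in females, at -1.16 ± 0.14, with groups that overlapped.

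The Cyp2c subfamily held genes of both directions within one stretch of chromosome 1. Cyp2c11, the testosterone 2alpha- and 16alpha-hydroxylase that is the main P450 of the adult male rat liver, measured 7.68, 7.90, 7.13, 8.24 and 6.47 in males and 1.26, 0.41, 1.32, 0.04 and 0.61 in females. That was a difference of 6.88 ± 0.25, or 117-fold (adjusted p = 4.7e-10, limma), and within the 4 shared slides it ran from 5.81 to 7.86. Cyp2c13 measured 7.42, 7.30, 6.70, 7.83 and 5.71 in males and 2.55, 1.25, 2.20, 1.61 and 1.68 in females, a difference of 5.25 ± 0.22. In both genes male control 6 was the lowest male and was still above all females. Cyp2c12, the steroid sulphate 15beta-hydroxylase, was the reverse, with 2.49, 2.98, 3.59, 3.93 and 1.78 in males and 9.87, 9.58, 10.03, 10.57 and 10.13 in females. All 10 arrays measured it above background, and it was 124-fold higher in females. In the RefSeq annotation no protein-coding gene lies between Cyp2c12 and Cyp2c13, so that neighbouring genes differed by -6.96 and 5.25. Cyp2c7, which lies in the same stretch and is described as a female-type P450, measured 6.71, 6.64, 6.29, 7.32 and 5.26 in males and 7.33, 5.24, 6.10, 7.19 and 6.37 in females. The sexes overlapped fully at this probe (-0.01 ± 0.23, adjusted p = 0.99, limma), while 1 of the 3 probes for Cyp2c7 was called, at -0.67. The probe sequences were not used here, and members of such families are so alike that a probe may also report a neighbour.

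The 250 bases before the annotated start of these genes show how alike, and how unlike, the members that went in opposite directions are. They come from the promoter table of RefSeq for GRCr8, in which 21 of the 23 genes in the plot of the largest differences have an entry. Cyp2c12 (chr1:248677035-248677284 on the minus strand), Cyp2c13 (chr1:248787189-248787438 on the minus strand) and Cyp2c11 (chr1:246174966-246175215 on the plus strand) are printed from 5′ to 3′ of the gene, together with A1bg (chr7:94387497-94387746 on the minus strand), a secreted protein of the female pattern described further down. Capitals mark 2 strings of letters, TTCNNNGAA, the form of a Stat5 site, and ATTGAT or its reverse complement ATCAAT, the core of a site for HNF6, the product of Onecut1.
Cyp2c12: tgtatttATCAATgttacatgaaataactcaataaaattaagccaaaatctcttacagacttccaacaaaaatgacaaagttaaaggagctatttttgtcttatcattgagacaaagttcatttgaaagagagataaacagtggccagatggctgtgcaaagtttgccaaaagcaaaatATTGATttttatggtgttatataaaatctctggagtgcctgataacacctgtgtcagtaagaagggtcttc
Cyp2c13: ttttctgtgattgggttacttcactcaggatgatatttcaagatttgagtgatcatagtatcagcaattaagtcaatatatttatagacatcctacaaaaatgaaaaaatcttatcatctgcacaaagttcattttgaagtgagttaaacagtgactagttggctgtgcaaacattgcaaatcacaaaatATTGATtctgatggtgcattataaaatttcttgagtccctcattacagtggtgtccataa
Cyp2c11: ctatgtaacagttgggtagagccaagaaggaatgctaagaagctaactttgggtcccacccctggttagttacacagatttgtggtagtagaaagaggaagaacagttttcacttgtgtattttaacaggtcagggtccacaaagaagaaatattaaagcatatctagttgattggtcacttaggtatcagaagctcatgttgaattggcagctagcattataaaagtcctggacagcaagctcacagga
A1bg: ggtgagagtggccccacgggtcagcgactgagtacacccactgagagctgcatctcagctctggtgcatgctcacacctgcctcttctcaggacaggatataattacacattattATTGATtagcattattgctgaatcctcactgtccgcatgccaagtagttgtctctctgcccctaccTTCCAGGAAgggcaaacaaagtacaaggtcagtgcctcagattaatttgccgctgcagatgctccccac
The ATTGAT string stood at bases 71 to 66 before the start of Cyp2c12 and at bases 60 to 55 before that of Cyp2c13, that is, in a like place in a gene higher in females and a gene higher in males. Another copy began 243 bases before the start of Cyp2c12. The windows of Cyp2c12 and Cyp2c13 shared 162 identical bases over 265 columns of a global alignment (61.1%), and Cyp2c11 shared 50.7% with Cyp2c12. Neither string was found in the window of Cyp2c11. A1bg held TTCNNNGAA at bases 69 to 61 and ATTGAT at bases 135 to 130, and the marked strings do not overlap. Over all 33469 promoters of the table, searched on both strands, 7.67% held TTCNNNGAA and 7.10% held ATTGAT. Among promoters of the autosomal genes tested these shares were 6.51% and 3.48%. Of the 262 promoters of genes called higher in males 5.34% held TTCNNNGAA and 6.49% held ATTGAT, and of the 347 of genes called higher in females 8.36% and 5.48%. These are matches of letters in a short window and say nothing of binding.

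Outside families 1 to 4, the P450s that differed act on bile acids, oxysterols and retinoids. Of 12 tested, 1 was called higher in males and 2 higher in females, beside 3.33% and 4.32% of all autosomal genes. Cyp7b1, an oxysterol 7alpha-hydroxylase, measured 4.78, 4.88, 4.61, 5.00 and 2.65 in males and 2.22, 1.64, 2.08, 1.52 and 2.28 in females, a difference of 2.67 ± 0.23. Male control 6 lay near the females in this gene, and each of the other 4 males was more than 2 log2 units above the highest female. Cyp26a1, which degrades retinoic acid, was higher in females (2.85 to 4.38) than in males (0.29 to 1.57), by 7.85-fold. Cyp7a1, the rate-limiting enzyme of bile acid synthesis, was higher in females, at -1.12 ± 0.33 (adjusted p = 0.026, limma), with groups that overlapped. This call was lost when male control 5, female control 2 or female control 4 was left out. Cyp27a1, which acts in the same synthesis, differed by 0.03 and was not called, nor was Cyp8b1.

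Conjugating enzymes were divided by family. Of 8 sulphotransferases, 1 was called higher in males and 3 higher in females, beside 3.33% and 4.32% of all autosomal genes. The 3 were the hydroxysteroid sulphotransferases of the Sult2a group, which conjugate dehydroepiandrosterone and bile acids. Sult2a2 measured 0.57, 0.61, 0.38, 0.61 and 0.17 in males and 7.90, 6.62, 7.35, 7.87 and 7.59 in females, and these ranges were more than 6 log2 units apart. The difference of -7.09 ± 0.12 had within-slide values from -7.28 to -6.97. Sult2a6 and Sult2a1 were higher in females by 4.3-fold and 2.71-fold. Sult1c3 was higher in males by 2.03-fold. Of 9 UDP-glucuronosyltransferases 3 were called, all higher in females, namely Ugt1a9 (-1.90 ± 0.10), Ugt2b10 (-1.83 ± 0.25) and Ugt2a3 (-1.30 ± 0.18). In limma 2 of the 9 were higher in males at an unadjusted p below 0.05, against 4 higher in females. The direction of Ugt2a3 was reversed when the ratio computed by the scanner software was used (0.87, not called), and its sexes overlapped.

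Of 25 glutathione S-transferases, 4 were called higher in males and 2 higher in females, beside 3.33% and 4.32% of all autosomal genes. Those higher in males were 3 genes of the mu class and Gsta2. Gstm3 measured 3.98, 3.72, 3.70, 4.05 and 1.08 in males and 0.78, 0.29, 0.21, 0.11 and 0.10 in females, and only 1 female array was above background. Apart from male control 6, every male was more than 2 log2 units above the highest female, and the fitted difference was 3.38 ± 0.27. Gstm1 and Gstm2 differed by 1.54 ± 0.19 and 1.18 ± 0.18, and Gsta2 by 0.64 ± 0.15, a call that was lost without male control 2 or 5 and made at none of the 4 furan doses. Gsta3 and Gsta1, of the alpha class, were higher in females by 2-fold and 1.92-fold. For Gsta3 the 2 probes had the same direction and unequal size, and the dimmer one gave -3.87. Of 16 flavin monooxygenases and carboxylesterases, Ces1dl1 was called higher in males (0.97 ± 0.30) and Fmo5 (-1.21 ± 0.30) and Ces2e (-1.21 ± 0.11) higher in females. The call of Ces1dl1 was lost in 8 of the 10 leave-one-out fits.

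Steroid and carbonyl reductases differed in both directions and by as much as the P450s. Of 33 tested, 8 were called higher in males and 6 higher in females, beside 3.33% and 4.32% of all autosomal genes. The values of the sexes did not overlap for 11, against 7.36% of all autosomal genes tested. Hsd3b5, a member of the 3beta-hydroxysteroid dehydrogenase family that acts as a ketosteroid reductase, measured 9.05, 8.74, 7.98, 9.22 and 7.05 in males and 1.03, 0.32, 0.74, 0.09 and 0.31 in females (8.11 ± 0.24). The neighbouring gene Hsd3b2 was higher in males by 1.32 ± 0.14. Akr1c3, a hydroxysteroid dehydrogenase, measured 4.69, 4.85, 5.12, 5.19 and 3.17 in males and 0.11, 0.09, 0.01, -0.31 and -0.09 in females. As its brightest probe was not well above background on any female array, the level in males was at least 18.8-fold higher. Hsd11b1, which regenerates active glucocorticoid, measured 4.30, 4.23, 4.36, 4.48 and 3.58 in males and 0.67, 0.73, 0.69, -0.39 and -0.05 in females, and was 16.3-fold higher in males. Akr1d1, the 5beta-reductase of bile acid synthesis, and Akr1c12 differed by 1.24 and 1.51 and were called. Where such a gene had 2 probes they had one direction and could differ in size, as in Hsd3b5 (5.63 and 8.11) and Akr1c3 (2.55 and 4.90).

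The largest difference in the female direction was that of Akr1b7, an aldose reductase-like protein. It measured -0.48, -0.53, -0.57, -0.61 and 0.04 in males and 8.41, 7.82, 8.84, 8.93 and 8.71 in females. No male array was well above background, and the level in females was at least 333-fold higher (-9.18 ± 0.13, adjusted p = 1.4e-13, limma). Akr1b8, separated from Akr1b7 by 1 protein-coding gene on chromosome 4, was measured on all 10 arrays and was 12.5-fold higher in females. Akr1b10 was at least 1.54-fold higher in females. Srd5a1, the steroid 5alpha-reductase of liver, measured 2.62, 3.09, 3.21, 3.56 and 2.73 in males and 5.59, 4.48, 4.77, 5.77 and 4.92 in females. Here every female was above every male, at a difference of -2.12 ± 0.16. Akr1c15 and Akr1c14 were higher in females as well, at -1.32 and -0.72.

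Calls among alcohol and aldehyde dehydrogenases were all in one direction. Of 20 tested, 6 were called higher in females and none higher in males, beside 4.32% and 3.33% of all autosomal genes, and the median difference of the 20 was -0.03. At an unadjusted p below 0.05 in limma, 8 were higher in females and 2 in males. Aldh1b1, a mitochondrial aldehyde dehydrogenase, measured 2.24, 2.87, 3.05, 3.55 and 2.52 in males and 5.31, 4.65, 5.39, 5.45 and 5.55 in females (-2.47 ± 0.18). Adh6, not well above background on any male array, was at least 2.95-fold higher in females. Adh4 (-1.34 ± 0.20), Adh5 (-0.99 ± 0.07), Adh7 (-0.98 ± 0.11) and Adh1c (-0.74) completed the set. Aldh2 and Aldh1a1, the main enzymes for acetaldehyde and retinal, differed by 0.32 and 0.29 and were not called.

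**Figure D2:**
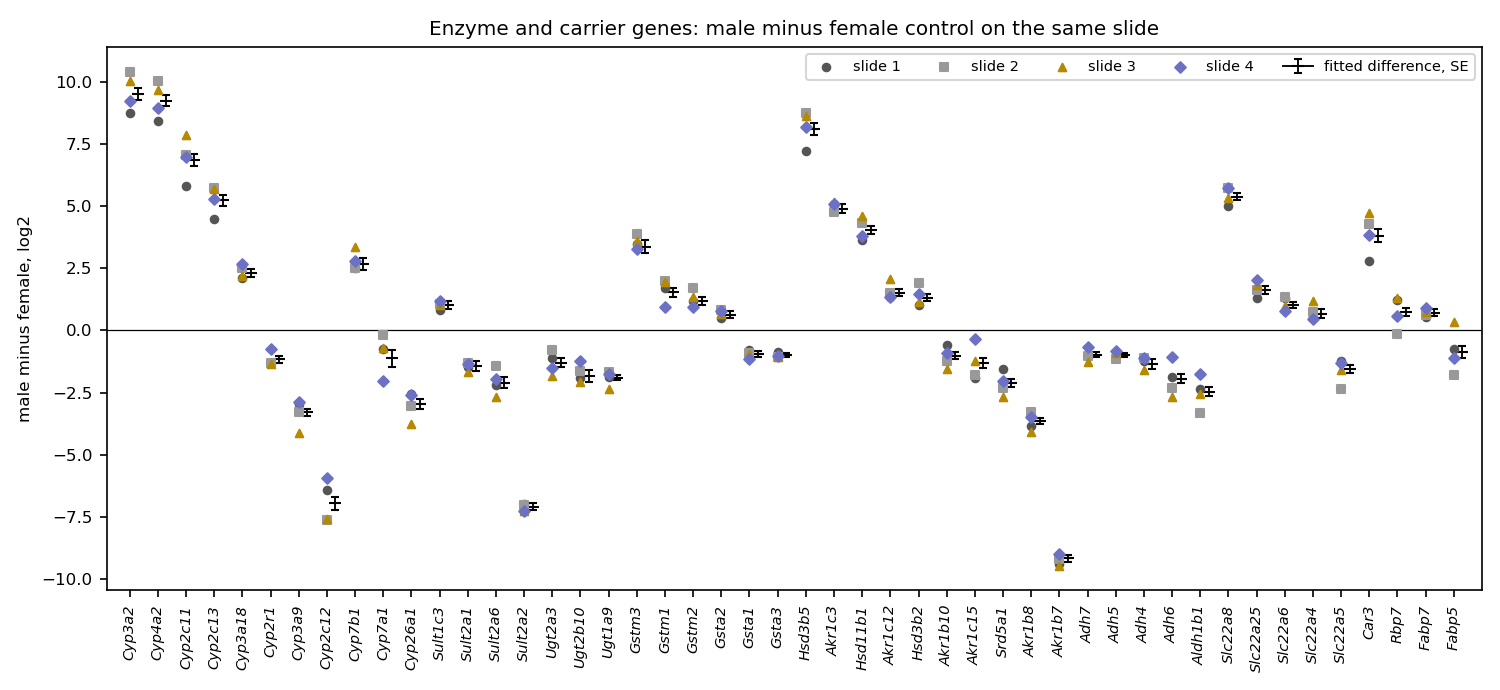
Male minus female log2 difference on each of the 4 slides that held 1 control of each sex (symbols). Black marks give the fitted difference over all 10 arrays and its SE. Shown is a selection of the called genes of the enzyme and carrier lists, not all of them. Within-slide values of Cyp3a2 run from 8.77 to 10.42 and those of Akr1b7 from -9.47 to -9.02. Rbp7 and Fabp5 have 1 slide each of the opposite sign. The called gene Fmo5 also has 1 such slide, at 0.02 against a fitted difference of -1.21.

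Carriers that move organic anions and cations into cells were tested through 29 genes. Of these, 4 were called higher in males and 1 higher in females, beside 3.33% and 4.32% of all autosomal genes. Slc22a8, the organic anion transporter OAT3, measured 5.83, 5.63, 5.16, 5.89 and 4.51 in males and 0.16, 0.00, 0.17, 0.31 and 0.10 in females. Only 1 female array measured it above background, and the difference was 5.38 ± 0.15. Its neighbour on chromosome 1, Slc22a6, which encodes OAT1, differed by 1.02 ± 0.13, and Slc22a25 was at least 2.48-fold higher in males. Slc22a5, the carnitine transporter OCTN2, was higher in females by 2.95-fold. The paralogue Slc22a4 (OCTN1), on the same chromosome, was higher in males by 1.59-fold, and this call was lost without male control 3 or female control 9. The bile acid and organic anion carriers of the sinusoidal membrane did not pass. Slco1a1, described as a male-type gene, measured 6.31, 5.78, 5.70, 6.21 and 4.61 in males and 5.64, 4.68, 5.34, 5.26 and 5.89 in females (0.43 ± 0.16, adjusted p = 0.073, limma). Its sexes overlapped, with 4 within-slide differences from 0.36 to 0.57. Slc10a1 (NTCP) differed by -0.04, Slco1b2 by -0.35 and Slco1a4 by 0.24.

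Export pumps differed little. Of 26 ABC transporters tested, 2 were called in each direction, beside 3.33% of all autosomal genes higher in males and 4.32% higher in females. None of these 4 differed by as much as 2-fold. Abcb9 (0.88 ± 0.11) and Abcc9 (0.72 ± 0.15) were higher in males. Abcb4, the phospholipid flippase of bile (-0.67 ± 0.16), and Abcb1a (-0.64 ± 0.10) were higher in females, and each lost the call without 1 array, male control 6 for Abcb4 and female control 11 for Abcb1a. The bile salt export pump Abcb11 differed by -0.11, Abcc2 by -0.46 and Abcg5 by 0.22, none of them called. Among 17 intracellular carriers, 3 were called higher in males and 2 higher in females. Car3, the carbonic anhydrase of the male liver, stands in this list although it is an enzyme and not a carrier. It measured 7.62, 8.03, 7.16, 7.75 and 5.81 in males and 3.91, 3.52, 4.35, 3.28 and 3.35 in females (3.81 ± 0.26). Rbp7 (0.74) and Fabp7 (0.71), higher in males, and Fabp5 (-0.86), higher in females, were all under 2-fold, and the call of Fabp5 was lost in 3 of the 10 leave-one-out fits.

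**Figure D3:**
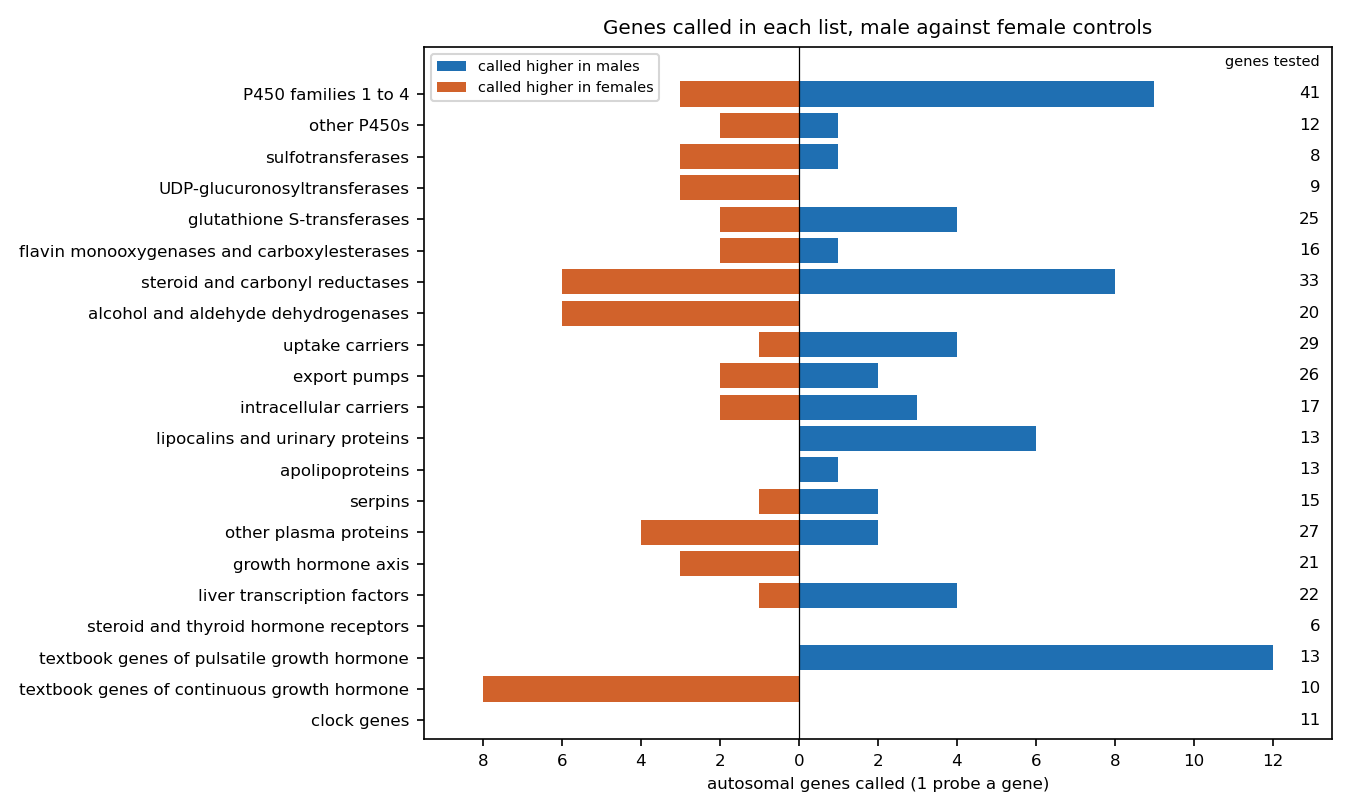
Number of autosomal genes called higher in males (blue, to the right) and higher in females (orange, to the left) in each gene list, with the number tested at the right edge. In the list of genes known from textbooks to follow pulsatile growth hormone, 12 of 13 were called higher in males. In the one for continuous growth hormone, 8 of 10 were called higher in females. Of all autosomal genes tested, 3.33% were called higher in males and 4.32% higher in females. The lists were drawn up with earlier results of these data known, so these counts are not separate support. No clock gene and no gene of the receptor list was called. The prolactin receptor Prlr, which was called, stands in the growth hormone list.

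Secreted carriers of small lipophilic molecules were called in one direction. Of 13 lipocalins and related urinary proteins, 6 were called, all higher in males, and the median difference of the 13 was 0.43 (limma, none higher in females at an unadjusted p below 0.05 either). The 6 were the 5 Mup genes tested and Obp3, whose products, the alpha-2u-globulins, are made in the male liver and passed into urine, where they carry pheromones. Mup4l3 measured 11.14, 10.80, 9.79, 11.02 and 9.57 in males and 3.11, 0.63, 3.05, 0.21 and 1.56 in females. Mup5 measured 10.84, 10.93, 10.09, 11.17 and 8.76 in males and 3.77, 1.57, 4.02, 0.82 and 2.66 in females, with within-slide differences from 6.07 to 10.11. The sexes were far apart in both genes, yet the females were spread over more than 2 log2 units, and the highest values were those of females 2 and 7. Mup4l4 (5.25 ± 0.46) and Obp3 (1.87 ± 0.33) had the same 2 females highest, and for Obp3 the sexes overlapped. Mup4l1 and Mup4 differed by 8.61 ± 0.53 and 7.74 ± 0.28. The 2 probes of Mup5 gave 5.67 and 7.89 and those of Mup4l4 5.25 and 8.75. The remaining members, Lcn2, Ambp, Apom, Ptgds, Rup2, Lcn10 and Lcn12, had differences from -0.19 to 0.43 and were not called.

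The genes for Mup4 and Mup5 lie close to each other on chromosome 5 and have almost the same sequence before the start. Their windows (chr5:79759497-79759746 on the minus strand, and chr5:79999696-79999945 on the minus strand) are shown with ATTGAT or ATCAAT in capitals. The windows lie before the start, outside the transcript that a probe reads. Their likeness therefore does not tell how alike the targets of the probes are.
Mup4: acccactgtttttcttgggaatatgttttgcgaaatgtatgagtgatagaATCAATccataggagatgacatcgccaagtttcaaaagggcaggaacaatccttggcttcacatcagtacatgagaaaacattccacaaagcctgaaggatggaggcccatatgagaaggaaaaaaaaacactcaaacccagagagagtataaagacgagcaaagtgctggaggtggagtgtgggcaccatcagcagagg
Mup5: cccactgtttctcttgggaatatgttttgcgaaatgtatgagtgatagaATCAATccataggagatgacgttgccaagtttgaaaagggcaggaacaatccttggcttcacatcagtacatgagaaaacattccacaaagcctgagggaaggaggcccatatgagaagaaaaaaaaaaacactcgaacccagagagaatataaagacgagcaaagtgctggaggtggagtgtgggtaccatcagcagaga
Of 251 columns in the alignment of the 2 windows, 238 were identical (94.8%). How far the Mup probes tell these genes apart was not tested, and the values of single members are uncertain for that reason.

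Among 27 other plasma proteins 2 were called higher in males and 4 higher in females, beside 3.33% and 4.32% of all autosomal genes. A1bg, alpha-1B glycoprotein, was the second of the very large female differences, with 0.00, 0.28, 0.51, 0.48 and 0.14 in males and 7.75, 6.28, 6.88, 8.11 and 7.20 in females (-7.10 ± 0.20). Only 1 male array was above background. A2m, alpha-2-macroglobulin, was higher in males, with values from -2.53 to -1.72 against -3.22 in the highest female, although its liver signal was below that of the reference in both sexes. The difference was 1.66 ± 0.15. Fgf21 (-1.23 ± 0.22), Lect2 (-0.64 ± 0.11) and Angptl4 (-0.61 ± 0.10) were higher in females and Afp (0.71 ± 0.10) in males. The call of Lect2 was lost without female control 9, and that of Angptl4 without female control 9 or male control 2 or 3. Of 15 serpins, Serpina5 (0.78 ± 0.14) and Serpina3n (0.60 ± 0.14) were called higher in males and Serpina6, the corticosteroid-binding globulin (-0.60 ± 0.13), higher in females. The call of Serpina3n was lost in 4 and that of Serpina6 in 3 of the 10 leave-one-out fits. Apon, at 0.63 ± 0.14, was the only one of 13 apolipoproteins to be called, a share near the 7.65% of all autosomal genes called. The call of Apon was lost without female control 4 or male control 5. Among major products of the hepatocyte that were not called, albumin differed by 0.14, transferrin by 0.23, apolipoprotein B by 0.05, haptoglobin by 0.47 and transthyretin by 0.68.

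The signalling chain that reads growth hormone was tested through 21 genes. Of these, 3 were called, all higher in females, beside 4.32% of all autosomal genes called higher in females. In limma, at an unadjusted p below 0.05, 6 were higher in females and 1 in males. The prolactin receptor, Prlr, measured 1.42, 0.70, 1.44, 1.61 and 0.47 in males and 5.98, 5.42, 5.83, 6.52 and 6.19 in females. It was 28.8-fold higher in females (adjusted p = 1.6e-09, limma), with within-slide values from -5.83 to -4.37. Igfbp2, a binding protein for insulin-like growth factors, measured -1.29, -1.82, -1.26, -1.19 and -1.08 in males and 1.14, 2.78, 2.05, 2.52 and 1.51 in females (-3.24 ± 0.23). Igfbp1 measured 0.11, 0.36, 1.40, 0.04 and 1.01 in males and 2.11, 2.93, 2.19, 2.03 and 1.22 in females, a smaller difference of -1.44 ± 0.20 with groups that overlapped between male 4 and female 11.

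The receptor and its kinase showed no such difference. The growth hormone receptor, Ghr, measured 4.24, 4.93, 5.01, 4.87 and 4.48 in males and 5.06, 4.64, 5.27, 5.34 and 4.68 in females, a difference of -0.31 ± 0.10 that passed on its adjusted p (0.039, limma) but not on size, and its other probes ran up to 0.22. Jak2 differed by 0.02 ± 0.07, Stat5a by -0.03 ± 0.08 and Stat5b by 0.08 ± 0.09, all with overlapping groups. Socs2, a feedback inhibitor that Stat5 induces, ranged from 0.43 to 1.49 in males and from 1.11 to 2.19 in females (-0.44 ± 0.17, adjusted p = 0.09, limma). It was called when male control 5 or female control 2 was left out. Cish, another such inhibitor, differed by 0.04 ± 0.19 at its brightest probe, while its other probe was called at 0.98. The hepatic products of the axis did not differ beyond their spread. Igf1 measured 4.84, 5.27, 4.53, 5.73 and 3.77 in males and 5.33, 4.22, 4.38, 4.77 and 4.76 in females (0.23 ± 0.17), Igfals differed by 0.14 ± 0.15 and Igfbp3 by -0.04 ± 0.13. Stat3 (-0.26), Socs3 (-0.05), the phosphatases Ptpn1 (0.08) and Ptpn6 (-0.13), Igf2r (-0.04), Igfbp4 (-0.21), Igfbp6 (0.30) and Igfbp7 (-0.01) were not called either. Transcript levels do not report the phosphorylation through which this chain acts.

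**Figure D4:**
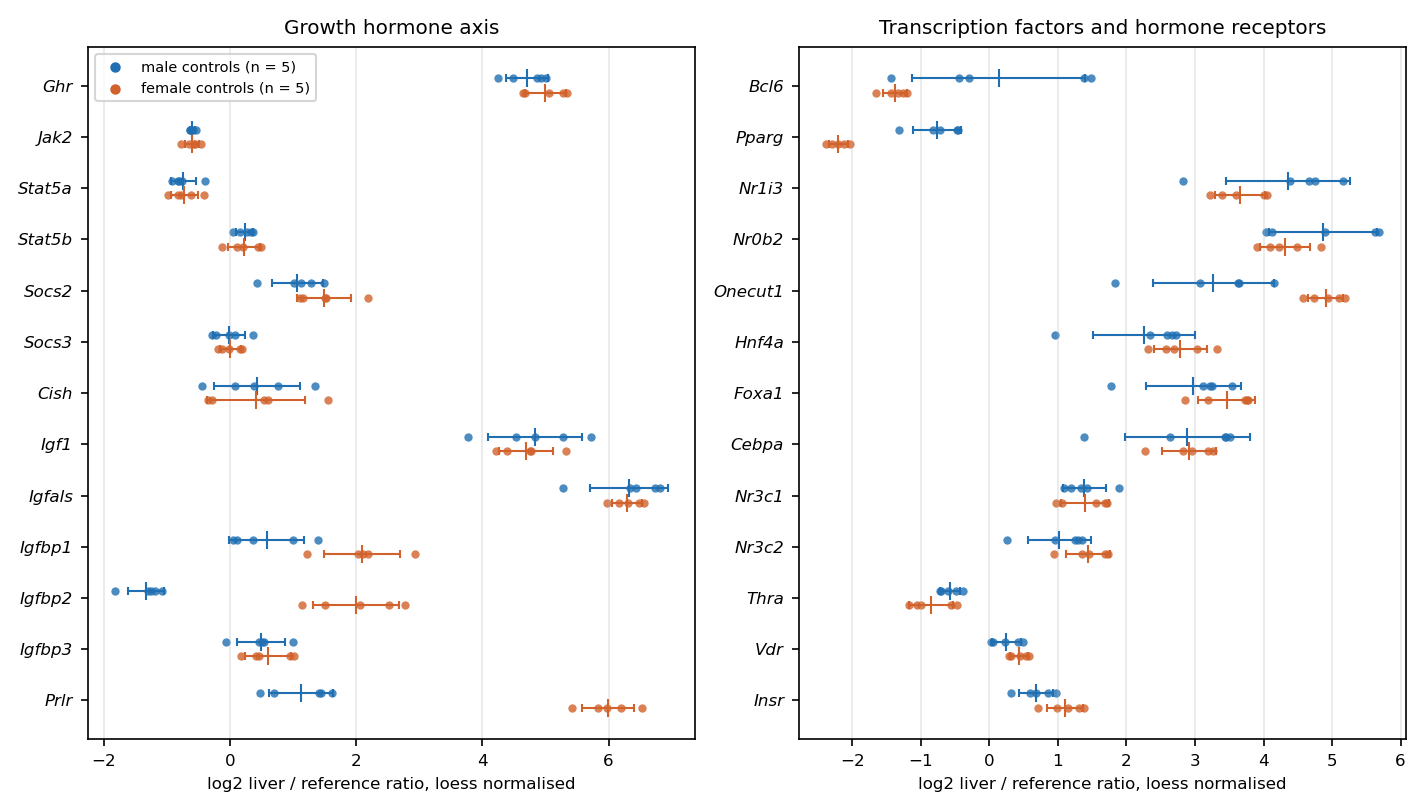
Log2 liver to reference ratio of each control rat for genes of the growth hormone axis (left) and for transcription factors and hormone receptors (right), males in blue and females in orange, with the mean and SD of 5 rats. Prlr and Igfbp2 are apart between the sexes, while Ghr, Jak2, Stat5a, Stat5b and Igf1 overlap, and Bcl6 spreads over almost 3 log2 units among the males.

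Among 22 liver transcription factors tested, 4 were called higher in males and 1 higher in females, beside 3.33% and 4.32% of all autosomal genes. Bcl6, a repressor that competes with Stat5 for its sites, measured 1.38, -0.44, -0.30, -1.44 and 1.48 in males and -1.26, -1.21, -1.66, -1.44 and -1.33 in females. The females lay within 0.5 log2 units of each other, whereas male 5 was as low as the females and males 2 and 6 were far above them. The difference of 1.32 ± 0.34 (adjusted p = 0.015, limma) was not called when male control 2 or female control 11 was left out. Pparg measured -0.46, -0.48, -0.83, -0.72 and -1.32 in males and -2.38, -2.11, -2.03, -2.29 and -2.20 in females, and here the sexes were apart (1.55 ± 0.11). Nr1i3, the receptor CAR, differed by 0.92 ± 0.21, and Nr0b2 (SHP) by 0.64 ± 0.22 with a call lost in 7 of the 10 leave-one-out fits. Onecut1, which encodes HNF6, was the member higher in females, with 3.07, 4.15, 3.63, 3.64 and 1.84 in males and 5.19, 4.93, 4.74, 5.10 and 4.57 in females (-1.40 ± 0.20). Every female was above every male. Hnf4a, Cebpa and Foxa1 differed by -0.39 ± 0.18, 0.22 ± 0.20 and -0.39 ± 0.18 and were not called. None of the 6 tested genes of the receptor list, which does not hold Prlr, was called in limma. At an unadjusted p below 0.05 in limma, 3 were higher in females and 1 in males. The insulin receptor Insr (-0.43 ± 0.10), the mineralocorticoid receptor Nr3c2 (-0.37 ± 0.12) and the thyroid hormone receptor Thra (0.31 ± 0.09) passed on the adjusted p but were under 1.5-fold. The glucocorticoid receptor Nr3c1, the vitamin D receptor Vdr and the glucagon receptor Gcgr differed by -0.04 ± 0.11, -0.18 ± 0.08 and -0.22 ± 0.13. The androgen receptor gene lies on the X chromosome and is outside these lists.

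Genes known from textbooks as targets of the growth hormone pattern are listed together here, although most have been described above and although the lists were drawn up with earlier results of these data known. Of 13 genes of the pulsatile, male-type pattern, 12 were called higher in males, and the median difference was 5.25. Slco1a1 was the exception. Cyp2a2, a further P450 of this group, measured 6.59, 6.70, 5.98, 6.80 and 5.37 in males and 4.77, 4.15, 4.44, 5.29 and 5.10 in females (1.59 ± 0.16). Of 10 genes of the continuous, female-type pattern, 8 were called higher in females, and the median difference was -3.48. The exceptions were Cyp2c7 and Cyp2a1. Cyp2a1, which has Cyp2a2 as its neighbour, measured 6.49, 6.36, 5.74, 6.62 and 5.10 in males and 6.88, 5.71, 6.00, 7.09 and 6.45 in females (-0.32 ± 0.18, adjusted p = 0.21, limma). Its sexes overlapped.

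Several genes with very large differences belong to none of these families. Cdh17, a cadherin of liver and intestine, measured 4.40, 4.20, 3.98, 4.31 and 3.31 in males and -2.66, -2.48, -2.04, -2.13 and -1.59 in females (6.29 ± 0.16). It was above background on all 10 arrays, so that its 78.4-fold difference is measured on both sides. Dhrs7l1, a short-chain dehydrogenase, was not above background on any female array and was at least 60.4-fold higher in males. Spink1l measured 9.21, 8.45, 8.32, 9.11 and 8.13 in males and 2.96, 3.88, 2.91, 4.16 and 2.49 in females, and Lrtm2 differed by 5.43 ± 0.28. On the female side Prom1, the membrane protein CD133, was 24.7-fold higher, Lifr, the receptor for leukaemia inhibitory factor, 18.1-fold, and Mmd2 11.7-fold. Lifr measured 4.25, 1.80, 4.57, 5.33 and 5.03 in females, where female 4 was far below the other 4, against -0.07 to 0.80 in males. Scube1 was at least 8.25-fold higher in females.

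Cpa1, a digestive carboxypeptidase best known from the exocrine pancreas, was also higher in females (-6.04 ± 0.17). It measured 0.01, -0.10, -0.38, -0.05 and -0.01 in males and 6.45, 5.04, 5.27, 6.41 and 5.77 in females, and no male array was well above background. Cpb1, Ctrc, Cela1, Cela2a and Ctrb1, which mark acinar cells as well, differed by -0.38 to 0.36 and were not called. The markers of these cells for trypsinogens and amylase were not above background on enough arrays of either sex to be tested.

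Markers of other cells of the liver were set beside these results, since in whole tissue fewer cells of a type and less RNA per cell cannot be told apart. Of 4 endothelial markers, Lyve1 was called (-0.96 ± 0.21), and of 6 stellate cell markers, Lrat (-0.70 ± 0.21, lost in 6 of the 10 leave-one-out fits), both higher in females. None of 5 macrophage, 4 bile duct, 5 lymphocyte, 2 neutrophil and 3 red cell markers was called in limma. At an unadjusted p below 0.05, 2 macrophage, 1 lymphocyte and 1 neutrophil marker were higher in females and 1 bile duct marker higher in males. The summed signal of the 5 macrophage markers ran from 10416 to 18965 in males and from 17953 to 24023 in females (exact permutation test, two-sided p = 0.0238, 0.155 after adjustment over the 13 single values tested). That of the endothelial markers ran from 4995 to 12486 and from 10289 to 15119 (exact p = 0.0635, adjusted 0.268). The part of these levels in the differences reported above was not tested. None of 11 clock genes was called in limma (at an unadjusted p below 0.05, 3 were higher in males and 1 in females), with differences from -0.34 for Nr1d1 to 0.42 for Per2.

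The same sex difference was then read in the treated rats, none of which entered the comparison of controls, although their arrays shared slides with them. The difference was fitted at each dose on the 39 treated arrays alone. Of the 825 autosomal probes called in controls, 469 were also called in the same direction at 0.03 mg/kg, 347 at 0.12, 350 at 0.5 and 333 at 2 mg/kg, against 7.60%, 3.40%, 3.37% and 4.88% of all probes called at these doses in either direction. None was called in the opposite direction at any dose. The sign was that of the controls for 94.3%, 97.9%, 98.3% and 94.2% of the 825. On 1 male array at 0.03 mg/kg only 5.06% of liver spots were well above background, and without it the counts were 458, 415, 430 and 408, against 4.39%, 4.21%, 4.63% and 6.56% of all probes. In that fit 1 control call was opposite, a probe of Gpx2 at 2 mg/kg (1.08).

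How often a difference recurred went with its size. Of 83 autosomal genes that differed by at least 4-fold in controls, 66 were called in the same direction at all 4 doses (79.5%). Of 178 genes between 2- and 4-fold this held for 65 (36.5%), and of 471 genes under 2-fold for 39 (8.28%). Each of the 23 genes in the plot of the largest differences in controls was called at all 4 doses. Cyp3a2 ran from 7.35 to 9.30 over the 4 doses, Cyp2c11 from 5.70 to 6.63 and Mup5 from 7.15 to 9.23. In these genes the lowest value was that at 0.03 mg/kg. All values by dose in this paragraph are from the fit that includes the dim male array of that dose. Akr1b7 ran from -8.69 to -7.50, Sult2a2 from -6.78 to -6.42 and A1bg from -6.42 to -5.66. Among the genes that were not called in controls, Cyp2c7 had values from -0.33 to 0.19 and was called at no dose, and Slco1a1 had values from -0.53 to 1.18 and was also called at none. Bcl6 was called at 3 of the 4 doses, with differences from 0.47 to 2.69, and Onecut1 at 2, with -2.14 to -1.10. Ghr was called at 0.03 mg/kg alone, where its difference was -1.14 with the dim array included. The only gene of the 83 that was called at no dose was Mt2A, the metallothionein, at -2.41 in controls and -1.25 to 0.52 in treated rats.

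**Figure D5:**
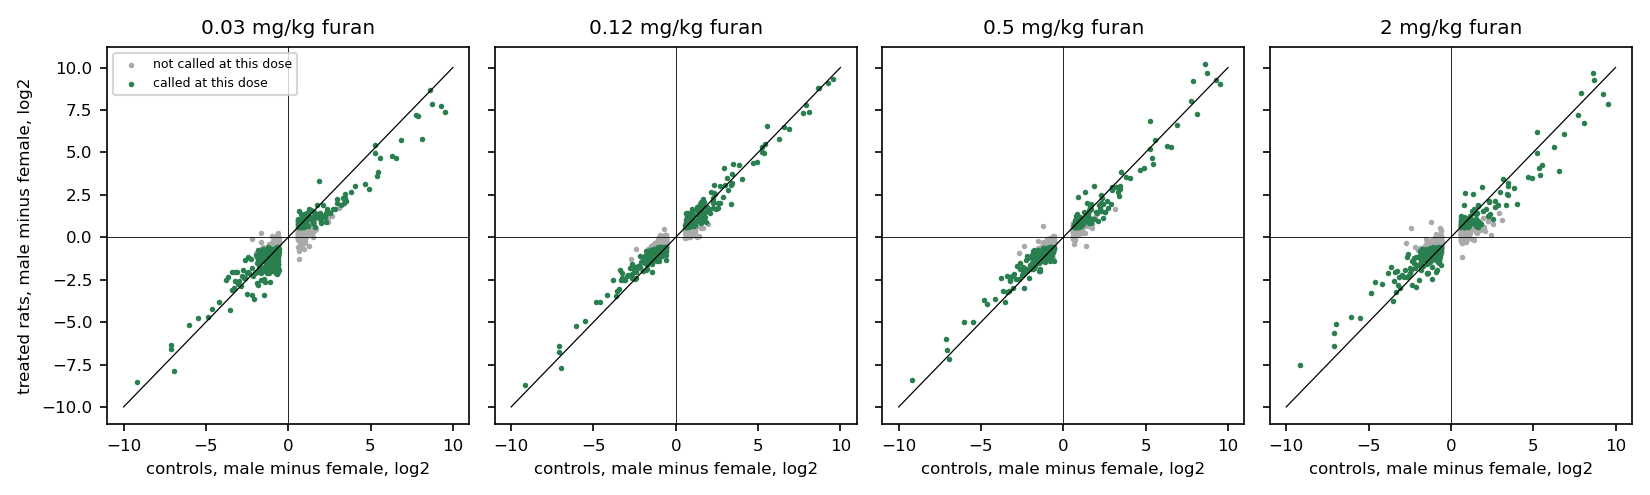
Male minus female log2 difference in treated rats at each furan dose (vertical axis) against that in controls (horizontal axis) for the 732 autosomal genes called in controls, in green where the gene was also called at that dose. The line marks equal differences. The genes were chosen by the horizontal axis only, which tends to make control differences larger in size than treated ones. Cyp3a2 differed by 9.53 in controls, 9.30 at 0.12 mg/kg and 7.35 at 0.03 mg/kg. The fit includes the dim male array at 0.03 mg/kg, and its part in the values at that dose was not tested. Prlr differed by -4.85 in controls and -3.79 at 0.12 mg/kg.

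The median spread between rats of a sex was larger on the side where a gene was high. Among the 44 genes more than 4-fold higher in males the median SD was 0.69 among males and 0.37 among females, and among the 39 genes more than 4-fold higher in females it was 0.33 among males and 0.55 among females. Among autosomal genes that were not called the median SD was 0.22 and 0.23. Mup4l3 and Mup5 went the other way, with SDs of 0.73 and 0.98 among males and 1.34 and 1.38 among females. Of the called genes, 18 were not above background on any female array and 17 on any male array. The part of such values, and of the low signal of male control 6, in these spreads was not tested. Called genes were found on every autosome, from 3.74% of the genes tested on chromosome 18 to 12.3% on chromosome 17. Probes on the X chromosome, which are not part of this account, were called for 30 of 307 (9.77%).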

How the data were processed

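Log2 ratios were derived from scanner files of 2-colour Agilent arrays, 1 per rat, with liver RNA in Cy5, universal rat reference RNA in Cy3 and no dye swap. Per the file headers the spot intensities were extracted with Agilent Feature Extraction 10.7.3.1, and that software also wrote the log10 ratio, background-subtracted and dye-normalised, which the authors deposited with them. The deposited value table holds log2 ratios processed by the authors. In 8 of the 10 control columns of that table the values matched another control array of the same sex, so it was used only as an alternative. Most columns of treated rats also matched another array best. For male 22 at 0.03 mg/kg and female 68 at 0.5 mg/kg that array was of another dose. Which labels are right was not tested. The animal numbers and doses given here rest on the labels of the scanner files. Spots were background-corrected (normexp, offset 50) and loess-normalised in limma 3.58.1 (R 4.3.3), and spots of a probe averaged. Of 30367 probes, 18004 matched a gene symbol of the RefSeq table for GRCr8, none matched several, and 12363 matched none. Autosomal location was taken from that table, since the files hold none. Tested were 17613 probes well above background in liver on at least 4 of 5 arrays of either sex. Male and female controls were compared in limma with slide as a random block (consensus correlation 0.72), two-sided, with Benjamini-Hochberg adjustment over all probes tested. Treated arrays were fitted alone. A probe below background on all arrays of 1 sex was given a lower bound on its fold in the liver channel (loess and Aquantile). That bound is the mean of the other sex over the lowest signal called above background, or over the probe's own value where larger. It is not on the scale of the ratio and can exceed the fitted fold, as for Cpa1 (403 against 65.6). On simulated arrays with this layout the fit recovered 94% of 2-fold and all of 100 4-fold changes among 17613 probes. Without a slide term it recovered 81% and 97%. These arrays had the same slide correlation for every probe, as the fit assumes, and none had low signal. The recovery therefore describes the fit under its own assumptions. The number of arrays limits the precision. Named are the 12 largest called differences in each direction, up to 5 called members a list and direction, all tested members of the growth hormone, receptor and textbook lists, and chosen transcription factors, autosomal only, with the brightest probe of each gene. Of the genes this rule gives, 3 are not reported here. The members and lists were chosen with earlier results of these data known. Alternatives were other slide terms, scalings, background offsets, filters and tests, the liver channel alone, all 49 arrays and each array left out. Rats are separate animals.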

Additional observations from a re-analysis of the deposited data

Results flagged for a closer look

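A value was marked when its gap to the nearest of the other 4 rats of its sex was more than 0.71 of the range of that sex. This was looked at for 240 groups of 5 values of the named genes, and 20 were marked (8.33%), where chance marks about 1 in 20 groups. The groups are not independent, since rats were each measured on 1 array. Male control 6, whose array had the lowest share of liver spots above background, gave 11 of them. It was far from the other males for Dhrs7l1 (4.85), Akr1b7 (0.04), Cyp7b1 (2.65), Gstm3 (1.08), Akr1c3 (3.17), Hsd11b1 (3.58), Adh4 (1.51), Slc22a6 (0.47), Abcb4 (1.49), Hnf4a (0.95), Foxa1 (1.77), which is above the others for Akr1b7 and below them for the rest. Male control 5 was highest of the males for Cyp26a1 (1.57), Fgf21 (2.54). Male control 3 was lowest for Igfbp2 (-1.82). Female control 4 was lowest of the females for Cyp2r1 (1.54), Aldh1b1 (4.65), Adh4 (3.93). Female control 9 was highest for Lrtm2 (1.68). Female control 2 was highest for Gstm3 (0.78). Female control 7 was highest for Serpina5 (1.37). Without male control 6 the differences of Hnf4a and Foxa1 remained under the criteria. The part of its lower signal in these values was not tested. In none of 480 pairs of a named gene and a dose were the sexes apart in controls and apart in the opposite direction in treated rats. The 480 include genes whose sexes overlapped in controls, and those could not meet this condition.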

How the results depend on the processing

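The number of probes called, 1246 (598 higher in males, 648 higher in females), stayed within 1.5 times under most alternatives. Without a slide term it was 698 (312 and 386), with all 49 arrays and no slide term 545 (225 and 320), in a test against 1.5-fold itself 353 (162 and 191), and with no limit on fold 4095 (2203 and 1892). Median centring gave 1659 (330 and 1329), and the liver channel alone gave 834, of which 388 higher in females. Leaving out each array in turn gave 1088 to 1394 probes, 511 to 752 higher in males and 571 to 748 higher in females, so no single array moved a count by over 1.5 times. With the 8 arrays of slides 1 to 4, an alternative chosen after seeing the data, it was 1291 (648 and 643). The sexes share animal numbers 2 and 4, which are different rats. Deviations of the rats of the same number correlated at 0.27 and 0.12, against 0.35 to 0.62 for rats of the same slide. For pairs on different slides the median was -0.14, with a wide range from -0.61 to 0.60. The fit with the animal number as a replicate block and no slide term called 748, with 274 higher in females. Of the 1246, 264 were called in the same direction at all 4 doses, 154 without a slide term and 163 with median centring. Of the 91 called named genes 47 kept the call under every alternative run. Ugt2a3 alone changed direction, to 0.87 with the scanner's log ratio, and the cause was not tested. Signal over background limits the females' values of Cyp3a2, Cyp4a2 and Hsd3b5 and the males' of Akr1b7, Cpa1 and others given above as not well above background.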

Other observations

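Some genes with clear differences belong to none of the lists and were chosen after their values were seen. They include 4 genes that handle fatty acids and were higher in females. Cd36, a fatty acid transporter, measured 0.77, 0.07, 0.44, 0.69 and -0.72 in males and 2.81, 1.83, 3.82, 3.65 and 4.14 in females (-3.08 ± 0.26, limma adjusted p = 2.4e-06), and was called in the same direction at all 4 doses. Elovl6, an elongase of fatty acids, measured -2.62, -2.89, -2.37, -1.76 and -1.58 in males and 0.94, 2.37, 0.45, 0.88 and 0.35 in females (-3.12 ± 0.22). Every female was above every male in both. Scd2, a desaturase, and Mogat2, an acyltransferase of triglyceride synthesis, differed by -2.39 ± 0.22 and -2.47 ± 0.18, also without overlap.

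The metallothioneins, which bind zinc and copper, were higher in control females. Mt1 measured 1.15, 0.70, 0.77, 1.40 and 0.57 in males and 3.45, 3.27, 4.01, 3.31 and 4.14 in females (-2.72 ± 0.15), and Mt2A measured -0.21, -1.07, -1.15, -0.39 and -1.49 in males and 1.08, 1.69, 2.26, 1.15 and 2.11 in females (-2.41 ± 0.22). Within the shared slides Mt1 differed by -3.24 to -2.05. In treated rats the differences of Mt1 at 0.03, 0.12, 0.5 and 2 mg/kg were -1.93, -1.26, -0.95 and -0.37, and those of Mt2A -1.25, -0.68, -0.52 and 0.52. These are from the fit that includes the dim male array at 0.03 mg/kg. Whether the sex difference itself changed with dose was not tested.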
